A study of Mus musculus with 25 samples.

Results

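Serpina3n, Lcn2, Steap4, S1pr3, Aspg, Srgn, Amigo2, Ptgs2 and Ptx3 are 9 genes known from reactive astrocytes, the form that these glial cells take after injury or infection. They were taken by their listed symbols from the 43693 genes of the sorted-cell table and joined to the other tables by gene identifier. All 9 passed the filter on low counts in every comparison, so no member was lost.

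Reactive astrocytes switch on a set of genes that resembles the acute-phase response of the liver, in which interleukin 6 family cytokines acting through STAT3, and interleukin 1 and tumour necrosis factor acting through NF-kB and C/EBP factors, raise secreted defence proteins. Earlier work sorted such genes into a pan-reactive set, which rises in most injuries, an A1 set described after endotoxin and an A2 set described after ischaemia. Serpina3n, Lcn2, Steap4, S1pr3 and Aspg belong to the pan-reactive set, Srgn and Amigo2 to the A1 set, and Ptgs2 and Ptx3 to the A2 set.

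RNA was sequenced in 25 mouse libraries. Of these, 11 came from spinal cord cells of GFAP-Cre-/+:R26-tdT-/+ mice, in which a Gfap promoter drives the recombinase that switches on tdTomato. Red cells were sorted after enzyme digestion and myelin removal, and cells that once expressed the recombinase stay red. Mice received a thoracic contusion with a force of 60 kdyn, and sorted groups were sham (3 libraries), 7 days (3), 1 month (3) and 3 months (2, replicates 1 and 3) after it. Sham mice had a laminectomy without contusion and were taken at 7 days, so that injury, age and time since surgery cannot be told apart at 1 and 3 months. Whole tissue of the injury epicentre came from C57BL/6 mice at 3 months (3 libraries) and 1 month (3) after the same contusion, with no uninjured group. Replicates of cord, sorted or whole, pooled 3 mice each. The remaining 8 libraries were C57BL/6 brain astrocyte cultures from young pups. They carried a knockdown lentivirus against Zeb2os (2 libraries) or its control lentivirus (2), or a knockdown lentivirus against Zeb2 (2) or its control lentivirus (2), all under puromycin at 1 µg/ml. Selection began 24 h after infection in the Zeb2os set and 48 h after it in the Zeb2 set. The labels write the knockdown genotypes as Zeb2os -/- and Zeb2 -/-.

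Sorted libraries held 15.7 to 50.2 M counts, tissue libraries 15.4 to 27.1 M, the Zeb2os cultures 45.6 to 158 M and the Zeb2 cultures 29 to 65.4 M. Levels are counts per M (CPM) on scaled library totals. Groups were compared with edgeR's quasi-likelihood F test. A gene counts as called, and the words rose, fell and differed are used, where the Benjamini-Hochberg adjusted p over all genes tested was under 0.05. The label of the sorted cells was checked against markers: the 10 astrocyte markers were all detected and summed to 4340 to 5900 CPM in the sham libraries, and 7-day, 1-month and 3-month libraries held 2150 to 2710, 1300 to 1380 and 1090 to 1270 CPM of them. Markers of other cells were detected beside them. Those of oligodendrocyte precursors summed higher than the astrocyte markers in every sorted group, at 6420 to 7760 CPM in sham. Sums over different lists are not shares of cells. The 14 microglia and macrophage markers summed to 400 to 1660 CPM in the sham libraries, with 4530 to 6980, 3580 to 5620 and 9360 to 11900 CPM in those of 7 days, 1 month and 3 months, and the 6 oligodendrocyte precursor markers to 5080 to 8270 CPM over all sorted libraries. Fibroblast and mural markers (11) summed to 152 to 626 CPM in the sham libraries, with 3400 to 3580, 1880 to 2100 and 1520 to 1560 CPM at those times, and 10 endothelial markers to 66.7 to 232 CPM in sham, with 544 to 644, 303 to 336 and 486 to 691 CPM. Sham replicate 3 stood apart from the other sham libraries, with 626 CPM of fibroblast and mural markers against 182 and 152 CPM.

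The promoters are shown for the 5 members in which a searched motif was found, because the pathways above are known to act through such motifs. RefSeq start sites gave 10 windows of 250 bases before the start for the 9 genes, Srgn having a second start. Letters searched on both strands were TTCNNNGAA for STAT factors, TTGCNNAA for C/EBP, GGNNTTTCC for NF-kB, TGANTCA for AP-1 and TGACGTCA for the cyclic AMP element. Over all 32851 windows of 27025 genes, 7.02% held the STAT motif, 9.56% the C/EBP motif, 4.93% the NF-kB motif, 6.75% the AP-1 motif and 1.55% the cyclic AMP element. Among the members' 10 windows, 1 held the STAT motif, 4 the C/EBP motif and 2 the NF-kB motif, while no match to the AP-1 or cyclic AMP letters lay in these windows. Windows of S1pr3, Aspg, Srgn and Amigo2 held none of the 5 motifs. The sequences are written 5′ to 3′ on the gene's strand in build GRCm38.p6, from RefSeq, with motif matches in capitals and the last base next to the start. They lie at chr12:104406458-104406707 on the plus strand (Serpina3n), chr2:32387740-32387989 on the minus strand (Lcn2), chr5:7960222-7960471 on the plus strand (Steap4), chr1:150099781-150100030 on the plus strand (Ptgs2) and chr3:66219637-66219886 on the plus strand (Ptx3).
Serpina3n: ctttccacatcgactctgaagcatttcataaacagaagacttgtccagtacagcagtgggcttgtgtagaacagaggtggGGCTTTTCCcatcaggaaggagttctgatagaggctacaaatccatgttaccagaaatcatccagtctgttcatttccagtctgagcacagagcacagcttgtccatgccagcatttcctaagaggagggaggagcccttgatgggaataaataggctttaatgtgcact
Lcn2: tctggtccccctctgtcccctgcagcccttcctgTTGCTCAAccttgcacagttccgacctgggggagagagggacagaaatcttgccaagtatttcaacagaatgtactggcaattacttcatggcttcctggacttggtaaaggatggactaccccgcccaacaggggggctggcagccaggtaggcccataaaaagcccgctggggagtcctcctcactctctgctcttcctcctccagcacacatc
Steap4: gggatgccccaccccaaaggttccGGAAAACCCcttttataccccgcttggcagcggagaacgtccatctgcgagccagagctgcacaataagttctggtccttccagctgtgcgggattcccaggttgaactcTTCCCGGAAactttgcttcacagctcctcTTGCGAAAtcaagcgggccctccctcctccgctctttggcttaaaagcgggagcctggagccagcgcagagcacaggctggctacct
Ptgs2: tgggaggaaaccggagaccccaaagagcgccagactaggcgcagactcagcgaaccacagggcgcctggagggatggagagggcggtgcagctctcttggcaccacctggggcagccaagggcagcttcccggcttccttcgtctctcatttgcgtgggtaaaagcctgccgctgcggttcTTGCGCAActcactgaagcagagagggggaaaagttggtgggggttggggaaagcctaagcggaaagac
Ptx3: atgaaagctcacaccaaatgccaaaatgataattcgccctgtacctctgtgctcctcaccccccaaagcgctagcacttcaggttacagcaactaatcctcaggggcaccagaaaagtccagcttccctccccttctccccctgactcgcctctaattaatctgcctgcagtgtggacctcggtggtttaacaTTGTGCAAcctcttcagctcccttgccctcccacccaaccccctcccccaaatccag

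In the Serpina3n window the NF-kB match GGCTTTTCC began 170 bases before the start. Lcn2 held the C/EBP match TTGCTCAA from 216 bases before it. Steap4 held 3 matches, GGAAAACCC for NF-kB from 226 bases, TTCCCGGAA for STAT from 116 bases and TTGCGAAA for C/EBP from 87 bases before the start. Ptgs2 and Ptx3 each held a C/EBP match, TTGCGCAA from 69 bases and TTGTGCAA from 57 bases before it. No matches overlapped, and none was tested for binding or for a part in the members' levels in these data.

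In GRCm38, Serpina3n lies at chr12:104406729-104414329 on the plus strand, with 5 exon blocks and 2064 exonic bases. It is one of a cluster of similar genes, and 6.9% of its 50-base transcript words also occur in other genes, among them Serpina3e-ps, Serpina3g and Serpina3c, so a small part of its reads could be split between them. The other 8 members shared no 50-base word with another gene. Lcn2 lies at chr2:32384633-32388252 (minus), Steap4 at chr5:7960457-7982213 (plus), S1pr3 at chr13:51408639-51422797 (plus), Aspg at chr12:112106679-112127559 (plus), Srgn at chr10:62493833-62527451 (minus), Amigo2 at chr15:97244125-97247287 (minus), Ptgs2 at chr1:150100031-150108227 (plus) and Ptx3 at chr3:66219910-66225805 (plus). Exons of S1pr3 share 45 bases with the opposite-strand gene Gm32834, and those of Amigo2 share 58 bases with Pced1b on the other strand. The strand setting of the counting is not given in the sources used here, so reads of these short stretches cannot be assigned.

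The first comparison set sorted cells after injury against sham. At 7 days 4 of the 9 genes rose, Serpina3n, Srgn, Ptgs2 and Ptx3, and Amigo2 fell. Serpina3n, Srgn and Ptgs2 stayed above sham at 1 month and at 3 months, whereas Ptx3 was called at 7 days and not at the later times. The 5 calls at 7 days stand beside 18.3% of all 24286 genes tested, 9.87% higher and 8.41% lower. At 1 month 3 members were higher and Amigo2 lower, beside 12.1% of all genes called, 6.23% higher and 5.83% lower. At 3 months 3 members were higher, beside 11.7% of all genes called, 6.78% higher and 4.93% lower. The members' median log2 change against sham was 2.02 at 7 days, 1.70 at 1 month and 1.69 at 3 months, beside −0.06, −0.02 and −0.10 over all genes. These 3 comparisons share the sham libraries, so their values are given side by side and not as independent results. In bulk libraries such as these, fewer cells of a type and less RNA per cell cannot be told apart.

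Serpina3n encodes a secreted serine protease inhibitor, a mouse relative of the human gene SERPINA3. It had 33.3, 22.5 and 63.1 CPM in sham, 832, 725 and 649 CPM at 7 days, 160, 173 and 163 CPM at 1 month, and 99.7 and 203 CPM at 3 months. Every injured library lay above every sham library, the 7-day libraries were far above all others, and the 1-month and 3-month libraries overlapped. At 7 days Serpina3n was 18.6-fold above sham, a log2 change of 4.22 ± 0.35 (SE, adjusted p = 1.45e-06). The change against sham was 2.07 ± 0.32 at 1 month (adjusted p = 0.00049) and 1.94 ± 0.34 at 3 months (adjusted p = 0.00128). Against 7 days, Serpina3n fell by 2.15 on the log2 scale at 1 month (SE 0.32, adjusted p = 0.00246) and by 2.28 at 3 months (SE 0.37, adjusted p = 0.00207). Fibroblast and mural markers also had their highest sums at 7 days, where 7 of 11 were higher than sham. Of the endothelial markers 10 of 10 were higher at 7 days. The part of these cells in the Serpina3n and Ptx3 results was not tested. Serpina3n was the only member called between injured times, beside 2.61% of all genes from 7 days to 1 month and 6.05% from 7 days to 3 months. A fit on those pairs of groups alone, or without the filter on low counts, also called Ptx3 and S1pr3 in both, as given with the other alternatives. Between 3 months and 1 month edgeR called 0 of the 9 members, beside 0.387% of all genes. DESeq2 called 0 members there too, beside 590 of all genes, and 0 had an unadjusted p under 0.05, beside 2859.

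**Figure D1:**
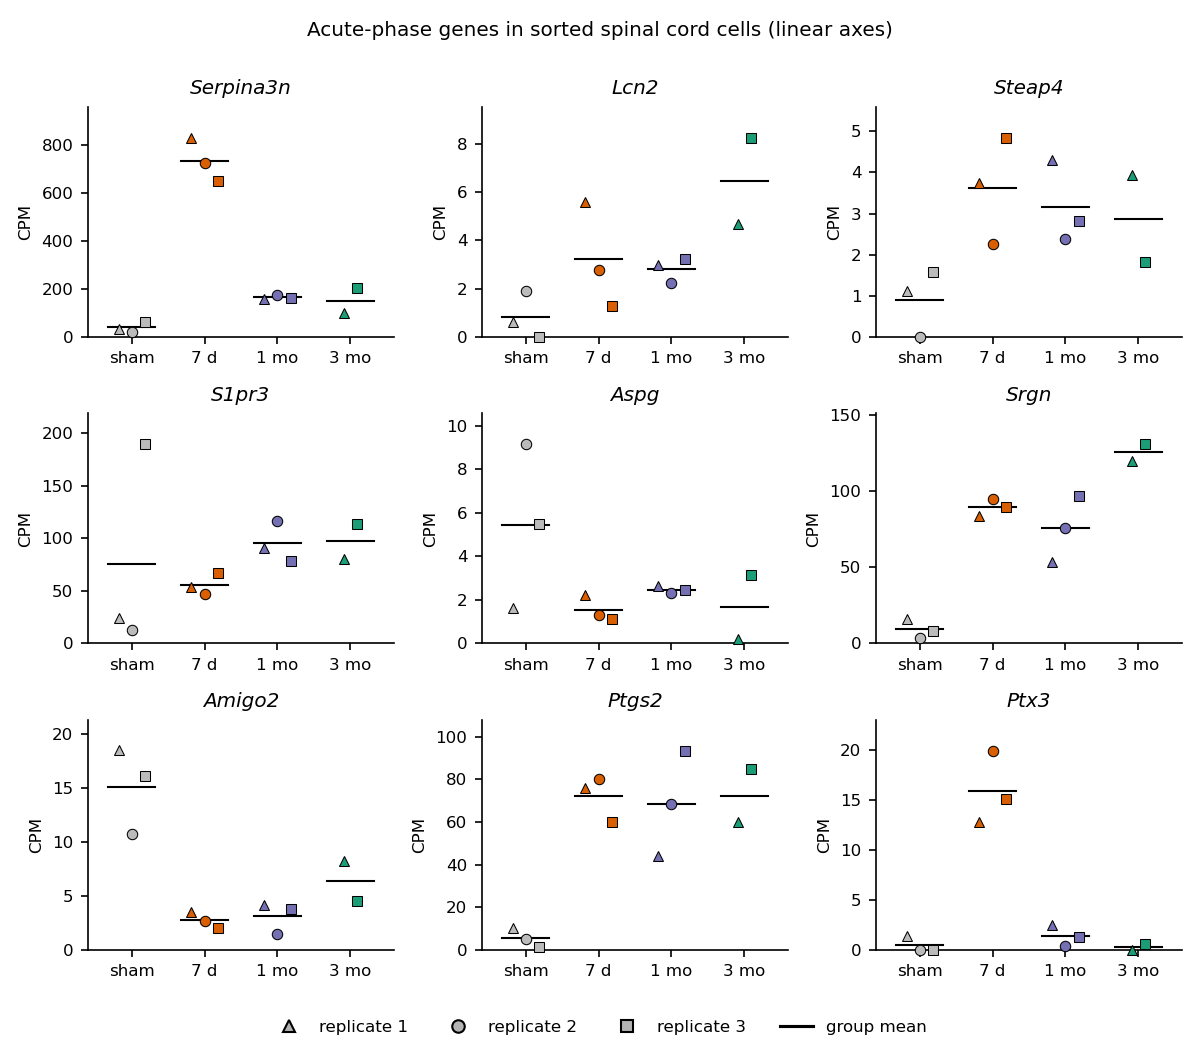
Level of each of the 9 genes in CPM on a linear axis for every sorted library, in sham and at 7 days (d), 1 month (mo) and 3 months after contusion, with symbols for replicates and a line at the group mean. Serpina3n and Ptx3 have their highest means at 7 days (735 and 15.9 CPM), and the fall after it was called for Serpina3n alone. Srgn and Ptgs2 stay above sham at every later time, and 1 sham library carries 190 CPM of S1pr3.

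Lcn2 encodes lipocalin 2, a secreted protein that binds iron-carrying siderophores and is also stored in neutrophil granules. It was scarce in the sorted cells, with 0.624, 1.91 and 0 CPM in sham (20, 57 and 0 counts), 5.57, 2.79 and 1.29 CPM at 7 days, 2.97, 2.25 and 3.23 CPM at 1 month, and 4.67 and 8.24 CPM at 3 months. The lowest 7-day library lay below the highest sham library, while all libraries at 1 and 3 months lay above sham. The log2 changes of 1.89 ± 0.96, 1.70 ± 0.95 and 2.90 ± 1.04 (SE) at the 3 times were not called (adjusted p = 0.208, 0.293 and 0.0891). Without sham replicate 2 the change was 3.23 at 7 days (adjusted p = 0.049) and 4.21 at 3 months (adjusted p = 0.0256), and DESeq2 called it on all libraries at 3 months (adjusted p = 0.0232). The 11 neutrophil markers summed to 5.15 to 75.2 CPM in the sham libraries, with 5.94 to 19.2, 0.339 to 9.25 and 17.6 to 41.8 CPM in those of 7 days, 1 month and 3 months. Ly6g and Elane were at 0 in all 3 injured groups and Mpo at 7 days and 1 month, and their part in Lcn2 was not tested.

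Steap4, a membrane metalloreductase that acts on iron and copper, was also scarce. It had 1.12, 0 and 1.57 CPM in sham, 3.75, 2.25 and 4.84 CPM at 7 days, 4.3, 2.37 and 2.83 CPM at 1 month, and 3.93 and 1.81 CPM at 3 months. All injured libraries lay above all sham libraries at each time, yet by little at 3 months. The log2 changes of 2.02 ± 1.02, 1.83 ± 1.01 and 1.69 ± 1.09 were not called (adjusted p = 0.205, 0.286 and 0.35), and at 36, 0 and 26 sham counts the SE was large.

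S1pr3, a receptor for the lipid mediator sphingosine-1-phosphate, had 24.5, 13 and 190 CPM in sham, 54, 47 and 67.1 CPM at 7 days, 90.5, 116 and 78.8 CPM at 1 month, and 80.3 and 114 CPM at 3 months. Sham replicate 3 exceeded every injured library and the other sham libraries lay below every one. The log2 change was −0.43 at 7 days (95% interval −1.66 to 0.80), 0.34 at 1 month (−0.89 to 1.56) and 0.36 at 3 months (−1.0 to 1.73), none of them called. Without sham replicate 3 the log2 changes were 1.58 ± 0.28 (SE, adjusted p = 0.00103), 2.34 ± 0.29 (adjusted p = 7.78e-05) and 2.37 ± 0.31 (adjusted p = 9.03e-05). That fit drops the library with the highest S1pr3, so its calls are no separate evidence of a rise. Without sham replicate 2 the changes were −0.91, −0.17 and −0.14. Sham replicate 3 also had 736 CPM of Schwann cell markers, against 118 and 70 CPM in the other sham libraries, and their part in the S1pr3 level was not tested.

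Aspg, an asparaginase, had 1.62, 9.16 and 5.51 CPM in sham, 2.24, 1.29 and 1.12 CPM at 7 days, 2.65, 2.33 and 2.45 CPM at 1 month, and 0.194 and 3.14 CPM at 3 months. Sham replicates 2 and 3 lay above every injured library and replicate 1 below several of them, so the groups overlapped at each time. Its log2 changes were −1.81 ± 0.87, −1.13 ± 0.85 and −1.72 ± 1.01 (adjusted p = 0.184, 0.463 and 0.308). Single libraries moved them: without 3-month replicate 3 or 1 the last was −4.78 or −0.77, and without sham replicate 2 the values at 7 days and 1 month were −1.18 and −0.52. Aspg was thus the pan-reactive member with a negative estimate at all 3 times, none of them called.

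Srgn encodes serglycin, the core protein of the proteoglycans in granules of blood-derived cells. It had 16.2, 3.56 and 8.47 CPM in sham, 83.7, 95.1 and 89.7 CPM at 7 days, 53.5, 76 and 97.1 CPM at 1 month, and 120 and 131 CPM at 3 months. All injured libraries exceeded all sham libraries, and the 3-month libraries exceeded all others. Srgn rose by 3.25 ± 0.39 at 7 days (SE, adjusted p = 3.81e-05), 3.00 ± 0.38 at 1 month (adjusted p = 0.000122) and 3.73 ± 0.41 at 3 months (adjusted p = 2.32e-05). The microglia and macrophage markers moved the same way: 11 of 14 rose at 7 days, 10 at 1 month and 12 at 3 months. Their part in the Srgn result was not tested.

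Amigo2, a cell-adhesion protein with leucine-rich repeats and an immunoglobulin domain, had 18.5, 10.7 and 16.1 CPM in sham, 3.53, 2.71 and 2.05 CPM at 7 days, 4.17, 1.45 and 3.78 CPM at 1 month, and 8.19 and 4.52 CPM at 3 months. All injured libraries lay below all sham libraries. It fell by 2.45 on the log2 scale at 7 days (SE 0.48, adjusted p = 0.00192) and by 2.27 at 1 month (SE 0.48, adjusted p = 0.0049). At 3 months its log2 change of −1.24 ± 0.53 was not called (adjusted p = 0.153). Of the astrocyte markers 9 of 10 were lower at 7 days, while Gfap rose (2.40 ± 0.25, adjusted p = 9.44e-06). Their sum was lowest at 3 months (1090 to 1270 CPM), where Amigo2 lay above all libraries of 7 days and 1 month. Ependymal markers summed to 929 to 1850 CPM in sham, with 318 to 375, 326 to 402 and 292 to 685 CPM at the 3 times. The part of either list in the Amigo2 result was not tested.

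Ptgs2 encodes cyclooxygenase-2, the inducible enzyme of prostaglandin synthesis. It had 10.5, 5 and 1.51 CPM in sham, 76.2, 80.4 and 60 CPM at 7 days, 44.1, 68.4 and 93.5 CPM at 1 month, and 60.2 and 84.7 CPM at 3 months. Injured and sham libraries did not overlap, and the 3 injured groups overlapped one another. Ptgs2 rose by 3.63 ± 0.47 at 7 days (SE, adjusted p = 6.82e-05), 3.56 ± 0.47 at 1 month (adjusted p = 0.000144) and 3.64 ± 0.49 at 3 months (adjusted p = 0.000138). Ptgs2 is also known as an immediate early gene. The 13 immediate early markers summed to 12900 to 27200 CPM in the sham libraries, with 6930 to 7310, 15400 to 18400 and 19500 to 21100 CPM in those of 7 days, 1 month and 3 months, and 12 of 13 fell at 7 days. Of the microglia and macrophage markers 11 of 14 were higher than sham at 7 days, 10 at 1 month and 12 at 3 months, as Ptgs2 was. The part of either list in the Ptgs2 level was not tested.

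Ptx3, a long pentraxin that binds microbes and matrix, had 1.37, 0 and 0 CPM in sham (44, 0 and 0 counts), 12.8, 19.9 and 15.1 CPM at 7 days, 2.54, 0.418 and 1.27 CPM at 1 month, and 0 and 0.619 CPM at 3 months. The 7-day libraries stood above all others, and the remaining groups overlapped. A count of 0 in sham allows up to 0.182 CPM in the shallower of those libraries, for counting error only. Ptx3 rose by 5.02 ± 1.31 at 7 days (SE, adjusted p = 0.0132), a call lost without 7-day replicate 2 (4.86 ± 1.57, adjusted p = 0.0604). Without sham replicate 1 the fitted value was 12.06, against sham libraries at 0 counts, and is no bound. Its log2 change against sham was 1.52 ± 1.18 at 1 month (adjusted p = 0.478) and −0.78 ± 1.46 at 3 months (adjusted p = 0.801). Without sham replicate 1, which left sham at 0 counts, the fit called Ptx3 higher at 1 month (adjusted p = 0.0122). Set against 7 days, Ptx3 had log2 changes of −3.50 ± 1.20 at 1 month and −5.80 ± 1.67 at 3 months (SE). The main edgeR fit called neither (adjusted p = 0.158 and 0.0528).

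**Figure D2:**
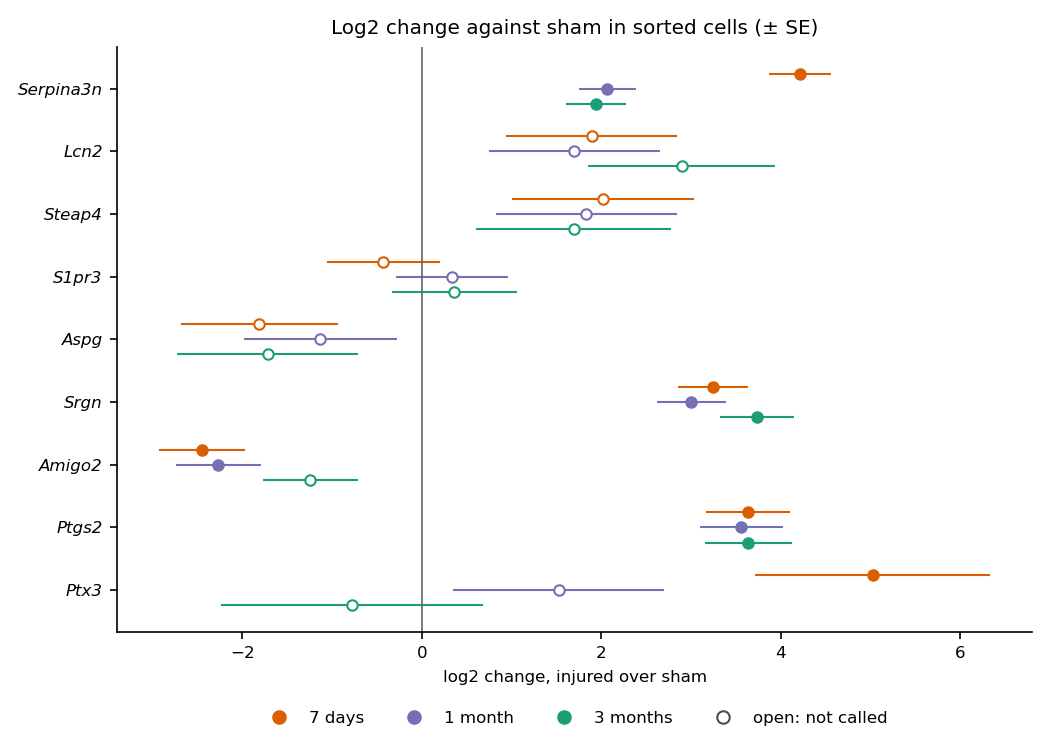
Log2 change of each gene in sorted cells, injured over sham, with bars of ± 1 SE, at 7 days, 1 month and 3 months; filled points passed an adjusted p under 0.05 and open points did not. Serpina3n at 7 days (4.22) stands clear of its later values, Srgn and Ptgs2 keep values of 3.00 to 3.73, and Ptx3 runs from 5.02 at 7 days to −0.78 at 3 months.

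Levels can be compared between genes only per length, here as mean CPM per kilobase of merged exons of all annotated transcripts. In sham the order was Serpina3n (19.2), S1pr3 (17), Amigo2 (4.77), Srgn (4.29), Aspg (1.54), Ptgs2 (1.24), Lcn2 (0.322), Steap4 (0.285) and Ptx3 (0.17). The S1pr3 mean includes sham replicate 3. At 7 days Serpina3n led at 356 CPM per kilobase, followed by Srgn (40.8), Ptgs2 (15.8), S1pr3 (12.5), Ptx3 (5.93), Lcn2 (1.23), Steap4 (1.14), Amigo2 (0.873) and Aspg (0.44). These are orders of group means, and single libraries of a group can order neighbouring genes differently.

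Over the 11 sorted libraries, Pearson's r of log2 CPM was highest between Srgn and Ptgs2 among the members (0.928), followed by Lcn2 and Ptgs2 (0.839), Steap4 and Srgn (0.808) and Serpina3n and Ptx3 (0.806). It was lowest for Amigo2 with Ptgs2 (−0.784) and with Serpina3n (−0.781). These values describe libraries that fall into 4 groups and share their scaling and depth. Among all genes tested, the most like Serpina3n were Apcdd1 (0.984), Itgb1 (0.981) and Nap1l1 (0.978). C3ar1 (0.995), Pabpc1 (0.99) and Cd83 (0.989) were most like Srgn, and Cd180 (0.991), Gm15200 (0.988) and Fn1 (0.986) most like Ptgs2. For Ptx3 they were Arpp19 (0.977), Smim10l1 (0.972) and Chst2 (0.96), and for Amigo2 Gm29508 (0.98), Rph3al (0.955) and Wdr66 (0.952). S1pr3 was most like Gm45564 (0.989), Slc43a3 (0.985) and Vgll3 (0.984). The scarce members gave Gm12963, Adh1 and Igsf6 for Lcn2 (0.959 to 0.971), Col13a1, AC159379.2 and Mfap4 for Steap4 (0.964 to 0.97), and Gm15777, AC153494.1 and LOC108167534 for Aspg (0.918 to 0.926).

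The lists around the members were counted in the same fit. Counts in this and the following list paragraphs stand beside the shares of all genes tested. These were 9.87% higher and 8.41% lower at 7 days, 6.23% and 5.83% at 1 month, and 6.78% and 4.93% at 3 months. Of 8 other pan-reactive genes 6 rose at 7 days, with a median log2 change of 2.61 beside −0.06 over all genes. Timp1, an inhibitor of matrix metalloproteinases, averaged 15.1 ± 1.84 CPM at 7 days and 0.904 ± 0.874 CPM in sham (SD, n = 3 each), and Osmr, the oncostatin M receptor, 44.6 ± 6.73 CPM at 7 days and 4.78 ± 5.01 CPM in sham. Of 9 other A1-type genes tested 7 rose (median 1.14), led by the matrix protein gene Fbln5 at 60.1 ± 6.81 CPM against 6.57 ± 3.71 CPM in sham. Of 10 other A2-type genes 5 rose (median 1.03), led by Cd14, the endotoxin co-receptor, at 231 ± 27.2 CPM against 23.5 ± 24.9 CPM in sham. Cd14 is also a microglia and macrophage marker. At 1 month 4 of the 8 pan-reactive genes, 7 of the 9 A1-type genes and 4 of the 10 A2-type genes were higher than sham, and at 3 months 4, 6 and 3. The A2-type gene list also held 1 lower gene at each of these later times.

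Upstream of the members, 14 of 29 cytokines, receptors and factors rose at 7 days and 4 fell (median 0.92). Il1b, the interleukin 1 beta gene, averaged 132 ± 5.07 CPM at 7 days and 5.84 ± 8.4 CPM in sham (SD, n = 3 each), a log2 change of 4.44 ± 0.82 (SE, adjusted p = 0.00123). Il1r1, its receptor, averaged 22 ± 3.88 CPM at 7 days and 1.4 ± 1.47 CPM in sham (adjusted p = 0.00143). The largest falls were in Il6, at 0.964 ± 0.244 CPM against 8.07 ± 9.55 CPM in sham (adjusted p = 0.0247), and in Jun, a subunit of AP-1, at 1140 ± 35.1 CPM against 3190 ± 681 CPM in sham (adjusted p = 4.41e-05). At 1 month 16 of the 29 were higher, and at 3 months 18 were higher and 1 lower.

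Around Ptgs2 and S1pr3, 6 of 21 tested genes of the prostaglandin and sphingosine-1-phosphate pathways rose at 7 days and 1 fell (median 0.69). Sphk1, a kinase that makes sphingosine-1-phosphate, averaged 6.72 ± 0.91 CPM at 7 days and 0.838 ± 0.793 CPM in sham (SD, n = 3 each). Ptger4, a prostaglandin E2 receptor, averaged 14 ± 3.27 CPM at 7 days and 2.77 ± 2.44 CPM in sham (adjusted p = 0.0178). S1pr1, another sphingosine-1-phosphate receptor, fell to 60 ± 5.87 CPM at 7 days, against 260 ± 23 CPM in sham (log2 change −2.12 ± 0.20, adjusted p = 5.61e-06). At 1 month 4 were higher and 1 lower, and at 3 months 7 and 1. Of all genes tested 6.23% were higher and 5.83% lower at 1 month, and 6.78% and 4.93% at 3 months.

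Among 15 tested relatives and binding partners of the members, 1 rose at 7 days and 4 fell (median −0.57). Of all genes tested 9.87% rose and 8.41% fell. Cd44, a receptor that binds serglycin, averaged 95.1 ± 8.12 CPM at 7 days and 13.7 ± 11.2 CPM in sham (SD, n = 3 each). Amigo1, a relative of Amigo2, fell to 8.37 ± 1.82 CPM against 25.7 ± 3.88 CPM in sham. Nptx1, a neuronal pentraxin, fell to 7.72 ± 4 CPM against 37 ± 9.87 CPM in sham. Relatives were 2 higher and 2 lower at 1 month, and 1 higher and 4 lower at 3 months.

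Of 16 tested classical acute-phase genes of the liver 3 rose at 7 days and 3 fell, with a median of 0.12. The shares over all genes were 9.87% and 8.41%. Saa3, a serum amyloid A gene, averaged 2.57 ± 0.517 CPM at 7 days and 0.126 ± 0.189 CPM in sham (SD, n = 3 each, adjusted p = 0.00546), and A2m, a broad protease inhibitor, 186 ± 36.9 CPM at 7 days and 29.8 ± 18.7 CPM in sham. Itih3, an inter-alpha-trypsin inhibitor chain, fell to 17.4 ± 3.66 CPM against 287 ± 129 CPM in sham (log2 change −4.05 ± 0.32, adjusted p = 1.18e-06). Mt1, a metallothionein, fell to 191 ± 22.4 CPM against 531 ± 247 CPM in sham. The list held 2 higher and 3 lower genes at 1 month, and 2 higher and 1 lower at 3 months.

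In injured cord tissue, levels at 3 months were set against 1 month. Serpina3n, Ptx3, Aspg and Steap4 fell and no member rose by edgeR's test. The 4 calls stand beside 14.7% of all 19652 genes tested, of which 8.01% were lower. The members' median log2 change was −0.63, beside −0.00 over all genes.

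Serpina3n had 314, 265 and 341 CPM at 3 months, against 1100, 1070 and 893 CPM at 1 month. Groups were far apart, and the log2 change was −1.73 ± 0.12 (SE, adjusted p = 0.00202). Ptx3 had 5.04, 5.51 and 7.42 CPM at 3 months, against 19.1, 20.8 and 20.3 CPM at 1 month, a log2 change of −1.75 ± 0.15 (adjusted p = 0.00261). Its libraries likewise did not overlap. Aspg had 23.3, 18.5 and 23.3 CPM at 3 months, against 37.5, 45.7 and 39.3 CPM at 1 month, a log2 change of −0.91 ± 0.12 (adjusted p = 0.00611). Steap4 had 14.7, 10.7 and 14.2 CPM at 3 months, against 19.4, 28.4 and 21 CPM at 1 month, a log2 change of −0.80 ± 0.18 (adjusted p = 0.0264). Neither gene's groups overlapped, but the call on Steap4 was lost in 4 of 6 fits, each missing a library (adjusted p = 0.0589 to 0.0886).

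Lcn2 had 206, 36.8 and 55.4 CPM at 3 months, against 154, 175 and 131 CPM at 1 month. Replicate 1 at 3 months was the highest of all 6 libraries and the other two were the lowest. The log2 change of −0.63 ± 0.57 was not called (adjusted p = 0.493). S1pr3 had 63.3, 29.1 and 40.2 CPM at 3 months, against 66.2, 67.9 and 59.9 CPM at 1 month, and Srgn 39.9, 21.8 and 24.5 CPM at 3 months, against 40.3, 46.8 and 37.3 CPM at 1 month. Ptgs2 had 6.68, 3.21 and 2.71 CPM at 3 months, against 5.83, 5.46 and 5.77 CPM at 1 month. In each of these 3 genes replicate 1 at 3 months lay within or above the 1-month range while the others lay below it. Their log2 changes of −0.55 ± 0.25, −0.53 ± 0.22 and −0.43 ± 0.32 were not called (adjusted p = 0.177, 0.147 and 0.403). Amigo2 had 18.4, 11.5 and 12.4 CPM at 3 months, against 9.8, 7.25 and 8.57 CPM at 1 month. All 3-month libraries were higher, and the log2 change of 0.73 ± 0.21 missed the threshold (adjusted p = 0.054). DESeq2 called Amigo2 higher (adjusted p = 0.0116).

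Replicate 1 at 3 months also stood apart in the 11 neutrophil markers, which summed to 2950, 324 and 305 CPM at 3 months, against 52.1, 99.7 and 88.5 CPM at 1 month. Of these markers 7 rose, none was at 0, and Lcn2 is itself known from neutrophil granules. Without that library all 9 members were called, 8 lower and Amigo2 higher, beside 5980 of all 19629 genes then tested. With all libraries 2889 genes were called. Without replicate 1 at 3 months, Lcn2 changed by −1.74 ± 0.18 (SE, adjusted p = 0.00105), S1pr3 by −0.90 (adjusted p = 0.00256), Srgn by −0.84 (adjusted p = 0.00184), Ptgs2 by −0.94 (adjusted p = 0.00396) and Amigo2 by 0.49 (adjusted p = 0.0308). That library was picked out partly by the levels of the members themselves, so these calls are no separate evidence of a change. Leaving out each of the other tissue libraries in turn called 3 or 5 members. The microglia and macrophage markers summed to 1850 to 2730 CPM at 3 months and 4470 to 6100 CPM at 1 month, with 11 of 14 lower. The part of either cell type in the members' levels was not tested.

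**Figure D3:**
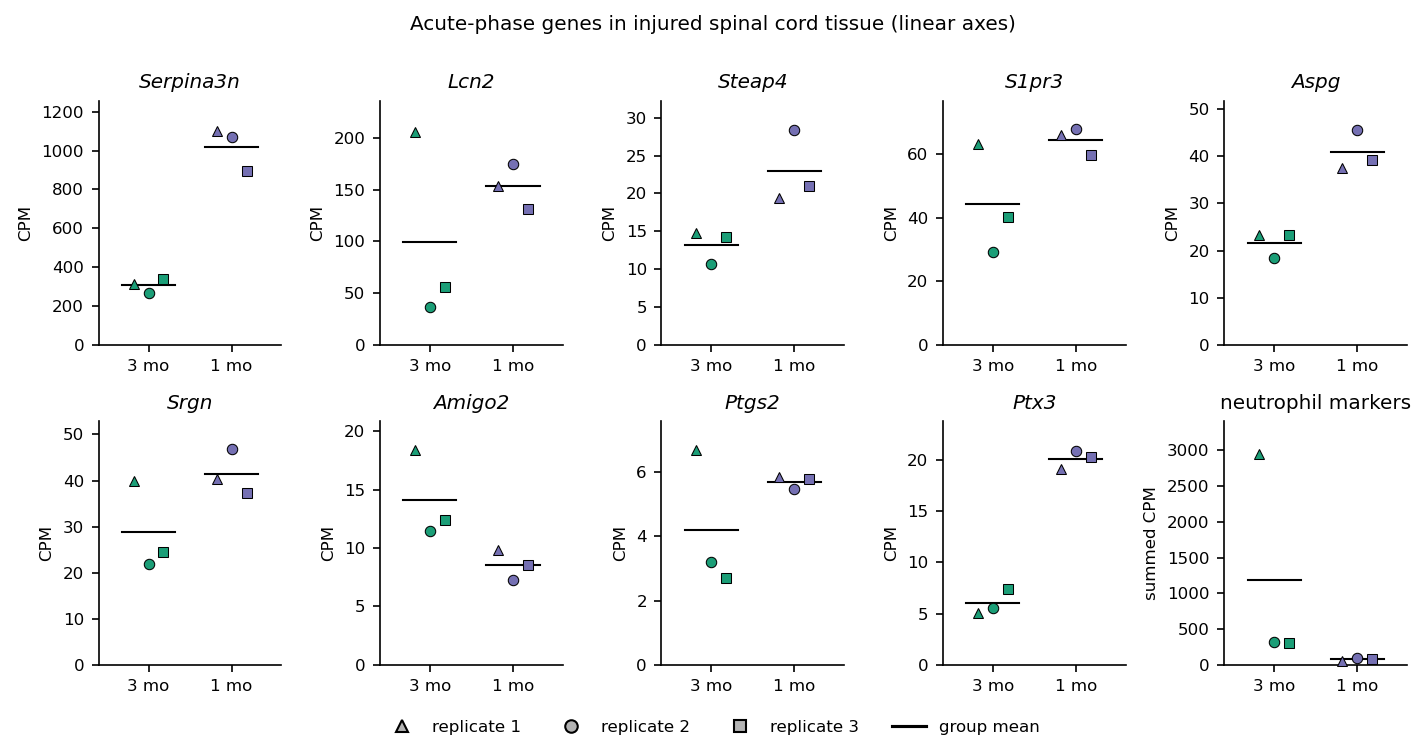
Level of each gene in CPM, and the summed CPM of 11 neutrophil markers, on linear axes in every tissue library at 3 months and 1 month (mo) after contusion, with symbols for replicates and a line at the group mean. Serpina3n, Ptx3, Aspg and Steap4 lie lower at 3 months without overlap, and Amigo2 lies higher without overlap but was not called. Replicate 1 at 3 months carries the highest Lcn2 (206 CPM) and neutrophil sum (2950 CPM).

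The lists around the members were counted in tissue as well, and in most of them most genes were not called. Of all genes tested in tissue, 8.01% were lower and 6.69% higher. Of 8 other pan-reactive genes 4 fell, led by Timp1 at 15.4 ± 3.19 CPM at 3 months and 49.3 ± 6.53 CPM at 1 month (SD, n = 3 each) and by the small heat shock protein gene Hspb1 at 82.6 ± 18.2 CPM at 3 months and 234 ± 22.7 CPM at 1 month. A1-type genes gave 2 lower of 9, and A2-type genes 5 lower of 10, led by the transglutaminase gene Tgm1 at 7.73 ± 0.928 CPM at 3 months and 28.6 ± 5.86 CPM at 1 month. Of 28 upstream cytokines and factors 10 fell and 1 rose. Cebpd, a C/EBP factor of the acute-phase response, averaged 12.5 ± 4.6 CPM at 3 months and 35.5 ± 5.67 CPM at 1 month (adjusted p = 0.0114). The riser was the receptor gene Lifr, at 119 ± 32.5 CPM at 3 months and 66 ± 4.24 CPM at 1 month. In the prostaglandin and sphingosine-1-phosphate list 4 of 22 fell and 1 rose, led by Hpgd, which breaks prostaglandins down, at 19.4 ± 1.09 CPM at 3 months and 45 ± 4.12 CPM at 1 month (adjusted p = 0.00202). Among the relatives 3 of 15 rose and 1 fell, led by Prg2, an eosinophil granule protein gene, at 12.4 ± 15 CPM at 3 months and 0.541 ± 0.245 CPM at 1 month. Of the classical acute-phase genes 5 of 15 fell, led by Saa3 at 2.82 ± 1.36 CPM at 3 months and 22.3 ± 3.35 CPM at 1 month (log2 change −2.99 ± 0.30, adjusted p = 0.00309). Of the other Serpina3 cluster genes 4 of 10 were tested and 1 fell, Serpina3i, at 0.839 ± 0.328 CPM at 3 months and 3.19 ± 0.491 CPM at 1 month.

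Sorted cells were then set against tissue at the same time after injury. The CPM above were scaled separately in each table, so these differences come from a joint fit of both tables on shared genes. It gives sorted and tissue libraries a common estimate of spread, so SE and p may be too small for the more variable sorted libraries. At 1 month 7 of the 9 members differed, 6 lower and Ptgs2 higher in sorted cells. Beside them 39.3% of all genes were called, 21.1% lower and 18.2% higher. At 3 months 8 differed, 6 lower and 2 higher, beside 37.3% of all genes, 20.7% lower and 16.6% higher. Mouse strain, digestion, sorting and table differed together with the comparison and cannot be told apart.

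The 6 members lower in sorted cells at both times were Serpina3n, Lcn2, Steap4, Aspg, Amigo2 and Ptx3. Lcn2 differed most at 1 month, where sorted libraries had 2.25 to 3.23 CPM and tissue libraries 131 to 175 CPM, a log2 difference of −5.86 ± 0.74 (SE, adjusted p = 6.98e-06). At 3 months its difference was −4.11 ± 0.81 (adjusted p = 0.000704), a call lost with voom weights that give sorted and tissue libraries their own variance (−3.87 ± 1.90, adjusted p = 0.116). Aspg differed by −4.13 ± 0.65 at 1 month (adjusted p = 7.91e-05) and −3.94 ± 0.79 at 3 months (adjusted p = 0.000874), where it was −6.96 without sorted replicate 3. For Serpina3n the differences were −2.71 ± 0.31 (adjusted p = 2.41e-06) and −1.18 ± 0.34 (adjusted p = 0.0117), the second lost without sorted replicate 1 at 3 months (−0.75, adjusted p = 0.151) and at −1.81 without sorted replicate 3. Ptx3 differed by −3.93 ± 0.97 and −4.63 ± 1.31, Steap4 by −2.94 ± 0.66 and −2.35 ± 0.76, and Amigo2 by −1.54 ± 0.39 and −1.31 ± 0.44 (adjusted p at most 0.0261). Without sorted replicate 3, which left sorted cells at 0 counts at 3 months, the fitted Ptx3 value was −10.62 and is no bound. With voom weights Amigo2 was not called at 3 months (adjusted p = 0.0592), and 6 members were called in place of 8. At 3 months the calls on Ptx3, Steap4 and Amigo2 were each lost without at least 1 of the libraries, with adjusted p of 0.0501 to 0.201. With replicate number as a block in the edgeR fit, the calls on the same genes were lost at both times (adjusted p = 0.0728 to 0.125).

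Ptgs2 was higher in sorted cells by 3.50 ± 0.49 at 1 month (SE, adjusted p = 2.04e-05) and 3.95 ± 0.51 at 3 months (adjusted p = 1.3e-05). The 13 immediate early markers were all higher in sorted cells at both times, at 15400 to 18400 CPM in sorted cells against 376 to 391 CPM in tissue at 1 month, and 19500 to 21100 CPM in sorted cells against 232 to 303 CPM in tissue at 3 months. Their part in the Ptgs2 difference was not tested. Srgn was higher in sorted cells at 3 months (1.97 ± 0.39, adjusted p = 0.00081) and not called at 1 month (0.78 ± 0.36, adjusted p = 0.0949). Microglia and macrophage markers at 3 months summed to 9360 to 11900 CPM in sorted cells and 1850 to 2730 CPM in tissue, with 12 of 14 higher, and their part in the Srgn difference was not tested. S1pr3 differed by 0.47 at 1 month (95% interval −0.74 to 1.69) and 0.98 at 3 months (−0.36 to 2.32), neither called. Astrocyte markers summed to 1300 to 1380 CPM in sorted cells and 13200 to 14600 CPM in tissue at 1 month, with 9 of 10 lower in sorted cells.

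**Figure D4:**
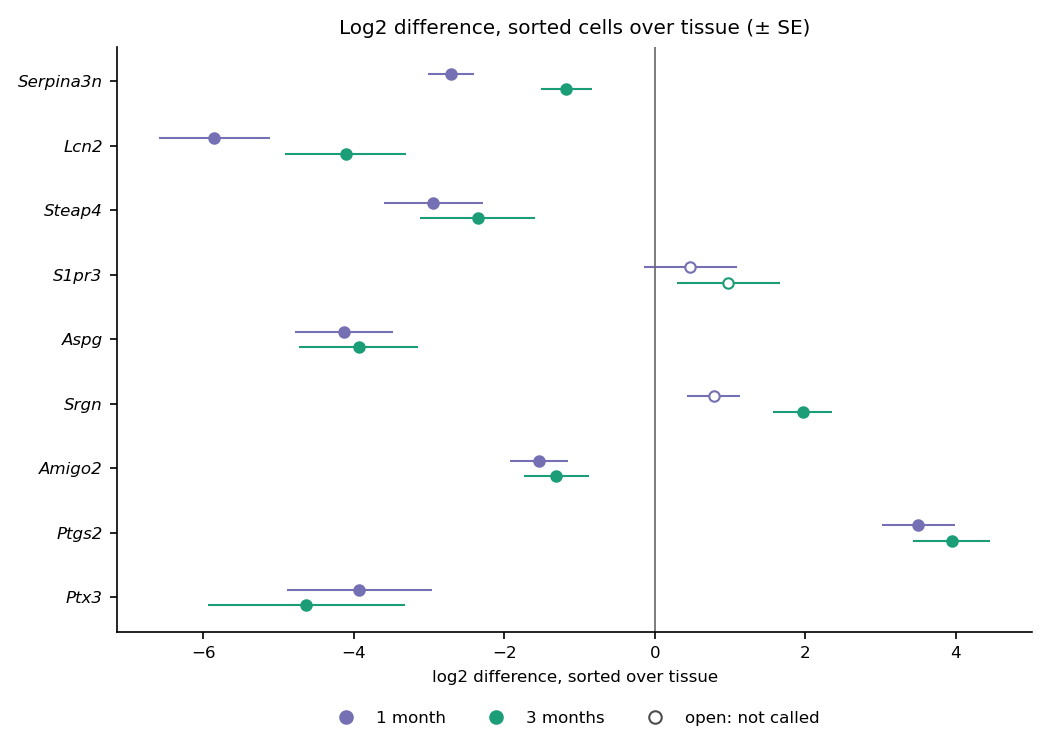
Log2 difference of each gene between sorted cells and tissue, sorted over tissue, with bars of ± 1 SE, at 1 month and 3 months after contusion; filled points passed an adjusted p under 0.05 and open points did not. Lcn2 lies lowest at 1 month (−5.86), and Ptgs2 lies highest at both times (3.50 and 3.95).

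Whether the change from 1 to 3 months differed between sorted cells and tissue was tested as an interaction. edgeR called 0 of the 9 members, beside 3.89% of all 24730 genes tested. An unadjusted p under 0.05 was found for 2 members, beside 4717 of all genes, and DESeq2 called 1, beside 1865. Serpina3n had the lowest p, with a difference of 1.53 ± 0.43 between the log2 changes (SE, 95% interval 0.69 to 2.38, adjusted p = 0.057). Its level fell in tissue over this interval, while sorted cells averaged 152 ± 73.4 CPM at 3 months and 165 ± 7.21 CPM at 1 month (SD, n = 2 and 3). DESeq2's adjusted p for Serpina3n was 0.00618, and over the other settings it ran on both sides of the threshold. Srgn had a difference of 1.19 ± 0.53 (adjusted p = 0.232).

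In the cultures the targeted transcripts were checked first. Zeb2 averaged 19.7 ± 5.01 CPM in Zeb2 knockdown cultures and 140 ± 9.44 CPM in their controls (SD, n = 2 each). Zeb2os had 3.14 to 4.32 CPM in Zeb2os knockdown cultures and 3.8 to 5.82 CPM in their controls, ranges that overlap, so the knockdown was not seen in these counts. Zeb2 had 50 to 57.5 CPM in Zeb2os knockdown cultures and 51.7 to 70.2 CPM in their controls. Zeb2os overlaps Zeb2 on the opposite strand, and without the strand setting their shared reads cannot be assigned. The labels do not say whether libraries came from separate cultures, so p-values here measure the spread between these libraries alone, and that spread may be technical.

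The cultures labelled Zeb2os knockdown did not overlap their controls in any of the 9 members, beside 44.8% of all 20741 genes tested that did not overlap either, and edgeR called 0 of the 9, beside 0.188% of all genes. An unadjusted p under 0.05 was found for 4 members, beside 2424 of all genes, and DESeq2 called 3, beside 475. Of the members, 6 were below control in both libraries and 3 above. Serpina3n had 27.7 and 31.4 CPM in Zeb2os knockdown cultures, against 68.1 and 76.9 CPM in control cultures. Its log2 change of −1.30 ± 0.21 (SE) had an adjusted p of 0.0536 in edgeR and 1.84e-05 in DESeq2. Ptgs2 had 247 and 299 CPM in Zeb2os knockdown cultures, against 96.5 and 123 CPM in control cultures, a log2 change of 1.31 ± 0.24 (adjusted p = 0.0762 in edgeR and 8.1e-06 in DESeq2). S1pr3 had 26.7 and 23.7 CPM in Zeb2os knockdown cultures, against 42.4 and 50.5 CPM in control cultures, a log2 change of −0.88 ± 0.21 (adjusted p = 0.151 in edgeR and 0.0247 in DESeq2). In these 3 genes the groups stood well apart. Without control replicate 1 edgeR called 4 members (these 3 and Ptx3), and without control replicate 2 these 3, with the lone control assumed to vary like the knockdown pair.

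Aspg had 2.6 and 3.59 CPM in Zeb2os knockdown cultures, against 4.9 and 5.13 CPM in control cultures, and Srgn 2.41 and 1.96 CPM in knockdown cultures, against 1.14 and 1 CPM in control cultures. Ptx3 had 90.8 and 91.7 CPM in Zeb2os knockdown cultures, against 77.3 and 59.1 CPM in control cultures. Amigo2 had 5.57 and 5.47 CPM in knockdown cultures, against 6.67 and 6.99 CPM in control cultures. The 2 scarcest were Lcn2, at 1.15 and 0.909 CPM in knockdown cultures and 1.5 and 1.4 CPM in control cultures, and Steap4, at 0 and 0.186 CPM in knockdown cultures and 0.251 and 0.725 CPM in control cultures. Adjusted p for these 6 ran from 0.421 to 0.749. In the lists of reactive astrocyte and acute-phase genes, the 4 called genes were lower in Zeb2os knockdown cultures. Of all genes tested 0.0675% were lower and 0.121% higher. The 4 were Gfap, the astrocyte intermediate filament gene, at 177 ± 23.8 CPM against 518 ± 1.53 CPM in control (SD, n = 2 each, adjusted p = 0.0429), and Cxcl10, Gbp2 and A2m (adjusted p = 0.0306, 0.0334 and 0.0494). The other genes of these lists were not called and had log2 changes of both signs, such as Timp1 (1.20, adjusted p = 0.164) and Cp (−1.45, adjusted p = 0.0641). The astrocyte markers summed to 665 to 684 CPM in Zeb2os knockdown cultures and 1300 to 1390 CPM in control cultures. Fibroblast and mural markers summed to 19800 to 20400 CPM in Zeb2os knockdown cultures and 14100 to 17300 CPM in control cultures, and their part in the members' values was not tested.

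In the Zeb2 set edgeR called 0 of the 9 members, beside 0% of all 17609 genes tested. An unadjusted p under 0.05 was found for 0 members, beside 683 of all genes, and DESeq2 called 0, beside 28. Lcn2 had 161 and 1.82 CPM in Zeb2 knockdown cultures, against 85.9 and 0 CPM in control cultures. Steap4 had 108 and 0.446 CPM in Zeb2 knockdown cultures, against 15.5 and 0 CPM in control cultures. Serpina3n had 70.1 and 6.55 CPM in Zeb2 knockdown cultures, against 53.3 and 10.8 CPM in control cultures. In all 3 genes replicate 1 of each group was high and replicate 2 low, so that the spread within a group exceeded the difference between groups. Ptx3 showed the same order, with 46.5 and 23.8 CPM in Zeb2 knockdown cultures, against 66.4 and 19.6 CPM in control cultures. Ptgs2 had 107 and 472 CPM in Zeb2 knockdown cultures, against 470 and 642 CPM in control cultures. Its log2 change was −0.94 (95% interval −2.28 to 0.40), and without knockdown replicate 2 it was −2.38 (adjusted p = 0.0244), with the lone knockdown library assumed to vary like the controls. S1pr3 had 66.6 and 61.6 CPM in Zeb2 knockdown cultures, against 62 and 32.2 CPM in control cultures, a log2 change of 0.44 (95% interval −0.31 to 1.20). Amigo2 was the 1 member whose groups did not overlap, beside 31.9% of all genes tested, at 2.5 and 2.71 CPM in Zeb2 knockdown cultures, against 3.17 and 3.46 CPM in control cultures. Aspg ran from 0.823 to 1.31 CPM in Zeb2 knockdown cultures and from 0.675 to 1.22 CPM in control cultures, and Srgn from 0.411 to 0.732 CPM in knockdown and from 0.593 to 1.07 CPM in control cultures. All 9 adjusted p were 0.999. That fit ignored replicate number, and edgeR with a replicate block called Steap4 higher (3.13, adjusted p = 0.00114), beside 80 of all genes. The block takes pairs from replicate numbers alone and leaves few residual degrees of freedom. Its Steap4 value rests mainly on replicate 1, as replicate 2 held 13 counts in knockdown and 0 in control. Without control replicate 1, Lcn2 and Steap4 were called higher in Zeb2 knockdown cultures, against a lone control library at 0 counts of both.

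**Figure D5:**
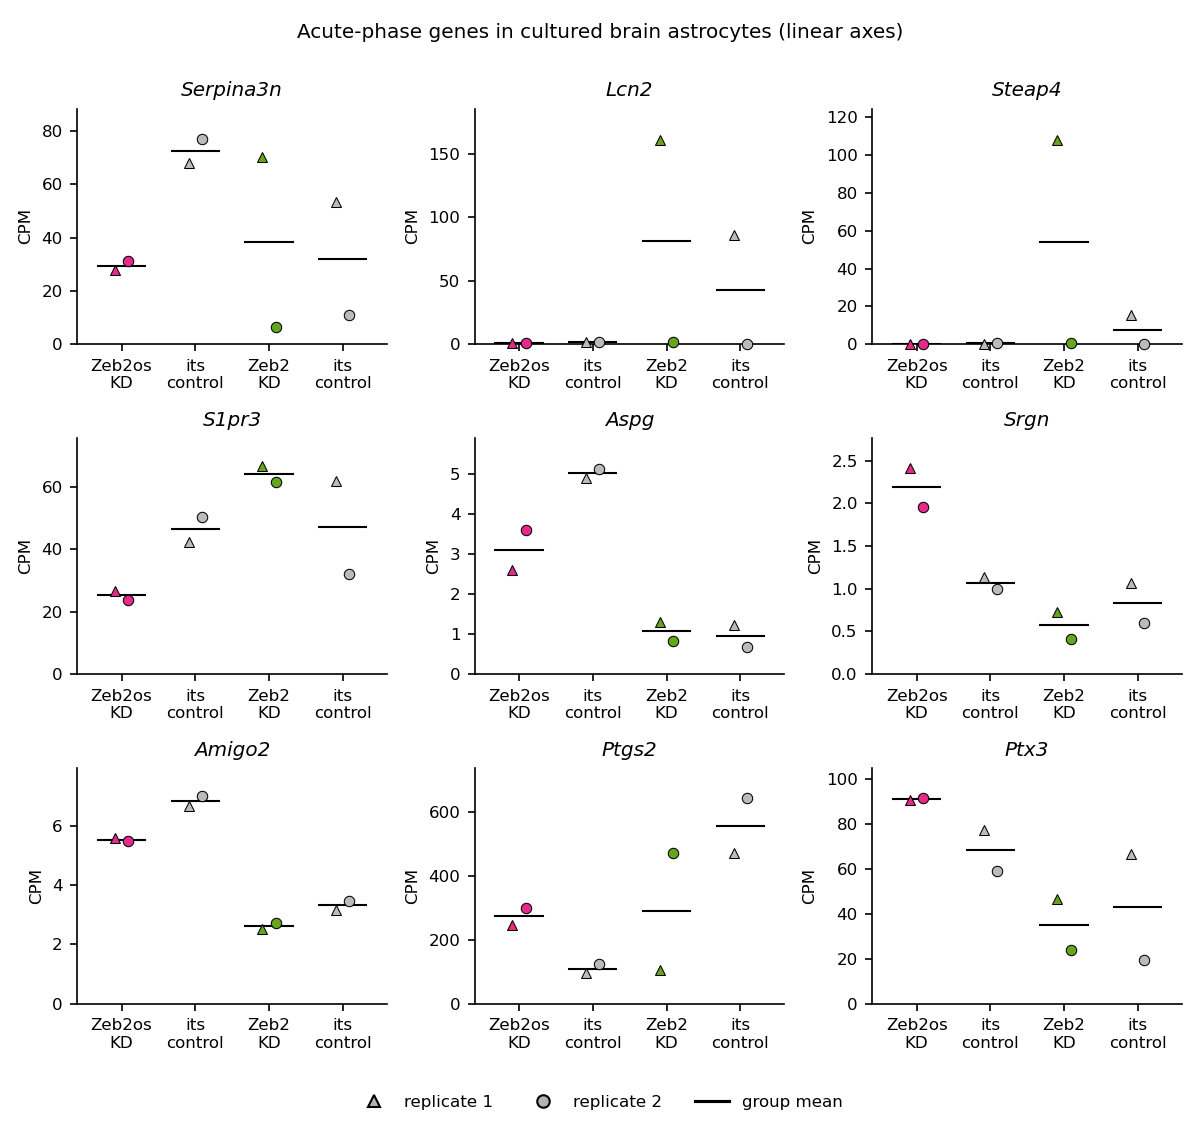
Level of each gene in CPM in every culture library, knockdown beside its control, for the Zeb2os set and the Zeb2 set, with symbols for replicates and a line at the group mean. Serpina3n lies lower (27.7 and 31.4 CPM) and Ptgs2 higher (247 and 299 CPM) in Zeb2os knockdown cultures than in their controls, and in the Zeb2 set replicate 1 of both groups carries most of the Lcn2 and Steap4.

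Per kilobase, the order of the members differed between sample kinds. Tissue at 1 month had Serpina3n at 494 CPM per kilobase, then Lcn2 (58.3), Srgn (18.9), S1pr3 (14.5), Aspg (11.6), Ptx3 (7.49), Steap4 (7.29), Amigo2 (2.7) and Ptgs2 (1.24). In control cultures of the Zeb2os set Serpina3n (35.1), Ptx3 (25.4) and Ptgs2 (24) led, and in those of the Zeb2 set Ptgs2 led at 121 CPM per kilobase. Ptgs2 was thus last in tissue and among the leading members in cultures.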

How the data were processed

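Libraries were 11 of sorted spinal cord cells, 6 of cord tissue and 8 of cultured astrocytes. Values deposited by the authors were raw read counts, whole numbers per gene, in 4 tables. TopHat2 2.1.0, Cufflinks 2.2.1, FastQC, DESeq2 and build mm10 are named in the submitters' processing notes, without their roles. The labels' protocols name a kit that keeps strand; the counting program, annotation and strand setting are not given in the sources used here, so overlapping genes on opposite strands are uncertain.

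Each table was fitted on its own in R 4.3.3 with edgeR 4.0.16 (filterByExpr at a minimum count of 10, trimmed mean of M values scaling, quasi-likelihood F test, Benjamini-Hochberg adjustment over all genes tested, threshold 0.05). All 4 sorted groups shared a fit, and sorted and tissue tables were joined by gene identifier in another. CPM use the scaled totals of each table's own fit. Intervals of log2 changes are 95% normal intervals around the estimate, with the SE derived from the F statistic. They ignore the few residual degrees of freedom of the F test and are narrower than that test implies. For Lcn2 at 7 days over sham the interval was 0.0165 to 3.77, while the unadjusted p of the F test was 0.0663. The floor for a count of 0 is 3 counts in a library. Both the floor and the depth of 15.4 to 158 M counts cover counting error only. Likeness between genes is Pearson's r of log2 CPM with a prior count of 2.

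The 9 members and the gene lists (pan-reactive, A1-type and A2-type genes, upstream cytokines and factors, prostaglandin and sphingosine-1-phosphate pathways, relatives and partners, Serpina3 cluster, classical acute-phase genes, and cell type markers) were chosen with earlier results of these data known. The text names all 9 members, the called list genes with the 2 largest rises and falls or those needed for a level, and the 3 genes most like each member. Counting of list genes replaces tests of the lists. Alternatives were other size factors (RLE), no filter, DESeq2 1.42.0, a replicate block, the 2 groups alone, limma 3.58.1 voom weights for sorted and tissue libraries, and leaving out each library in turn. Fits were also run on counts simulated from their own means and dispersions, which cannot show whether that model suits these libraries. No replicate pair was alike within counting noise.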

Additional observations from a re-analysis of the deposited data

How the results depend on the processing

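Over 1134 alternative values of the members' log2 changes, 1011 kept their direction and their side of the threshold, 20 lost the call, 51 gained one and 52 changed sign; 43 of the 52 came from leaving out 1 library. The cause of these changes was not tested. Counts of members called that differed by over 1.5 times, or from 0, were these. Without the filter on low counts there were 3 at 1 month over 7 days, 3 at 3 months over 7 days, 3 in the Zeb2os set, 1 in the Zeb2 set (Steap4, adjusted p = 4.63e-07) and 1 in the interaction. A fit of the 2 groups alone gave 3 at 1 month over 7 days and 3 at 3 months over 7 days. DESeq2 gave 3 in the Zeb2os set and 1 in the interaction, RLE size factors 1 and voom weights 1 in the interaction. Leaving out 1 library gave 0 to 1 members in the interaction, 3 to 9 in tissue, 0 to 2 in the Zeb2 set and 0 to 4 in the Zeb2os set. Smaller differences were 4 at 3 months over sham without the filter and with DESeq2 (3 as reported), 5 in tissue with both of these (4 as reported) and 3 there with the block, and 8 at 1 month and 6 at 3 months in sorted over tissue with voom weights (7 and 8 as reported). Over sham, leaving out 1 library gave between 4 and 6 members (7 days), between 4 and 5 (1 month) and between 3 and 4 (3 months), and in sorted over tissue at 3 months between 6 and 8.

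Same-numbered samples did not deviate together in the sorted, tissue and Zeb2os sets (correlations of −0.274 to 0.0805). In the Zeb2 set same-numbered samples correlated at 0.39 and other-numbered ones at −0.39, values that mirror each other by construction with 2 pairs. The main fit took no account of this pairing. It called 0 of 17609 genes in the Zeb2 set, and the fit with a replicate block called 80. With the replicate number as a replicate block, members called were 2 at 3 months over 7 days, 3 in the Zeb2os set, 1 in the Zeb2 set (Steap4, 3.13, adjusted p = 0.00114), 4 in sorted over tissue at 1 month and 5 at 3 months. Signs that changed under the replicate block were S1pr3 at 7 days over sham (0.10) and at 3 months over 1 month (−0.36), Lcn2 at 1 month over 7 days (0.0279), Aspg at 3 months over 7 days (−0.28) and Serpina3n in the Zeb2 set (−0.15). The sign of Ptgs2 at 3 months over 7 days changed without the filter (−0.0331) and in the 2 groups alone (−0.0517), that of S1pr3 at 3 months over 1 month without the filter (−0.0056), and that of Aspg in the interaction with voom weights (−1.13). All these main values were not called.

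Ranges over leaving out 1 library that crossed 0 were, for log2 changes in the interaction, Amigo2 −0.24 to 0.62, Aspg −2.78 to 1.21, Ptx3 −6.63 to 0.53 and Steap4 −0.0582 to 1.06. At 1 month over 7 days they were Amigo2 −0.08 to 0.52, Lcn2 −0.58 to 0.47, Ptgs2 −0.36 to 0.17 and Steap4 −0.47 to 0.0719. At 3 months over 7 days they were Aspg −2.98 to 0.99, Ptgs2 −0.27 to 0.20 and Steap4 −1.02 to 0.11. At 3 months over 1 month in sorted cells they were Aspg −3.66 to 0.32, Ptgs2 −0.20 to 0.36, S1pr3 −0.25 to 0.23, Serpina3n −0.74 to 0.27 and Steap4 −0.83 to 0.30. Against sham S1pr3 ranged over −0.91 to 1.58 (7 days), −0.17 to 2.34 (1 month) and −0.14 to 2.37 (3 months), and Ptx3 over −7.10 to 6.24 (3 months). In the Zeb2 set they were Aspg −0.19 to 0.66, Lcn2 −4.54 to 14.72, Ptx3 −0.91 to 0.84, Serpina3n −2.28 to 1.82 and Steap4 −4.10 to 14.14, where the extremes of Lcn2 and Steap4 are fitted against a library at 0 and are no bound.

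Counts of all genes called also moved by over 1.5 times. Between the lowest and highest of any setting they ran from 2867 to 5504 for 7 days over sham (4440 as reported), 1727 to 3953 for 1 month over sham (2927), 885 to 4042 for 3 months over sham (2844), 122 to 3560 at 1 month over 7 days (633), 408 to 3763 at 3 months over 7 days (1470) and 7 to 1277 at 3 months over 1 month (94). They ran from 305 to 5980 in tissue (2889), 20 to 4354 in the Zeb2os set (39), 0 to 804 in the Zeb2 set (0), 5500 to 11878 and 5395 to 10151 in sorted over tissue (9718 at 1 month, 9224 at 3 months) and 84 to 1865 in the interaction (961). Single libraries set several of these: without 7-day replicate 2 the count against sham was 2867, without 1-month replicate 2 or 3 it was 1806 or 1727, without 3-month replicate 3 it was 1189, in the Zeb2os set it was 4354 without control replicate 1, and in the Zeb2 set 804 without knockdown replicate 2. Against sham, the scarce members Lcn2, Steap4, Aspg and Ptx3 had SEs of 0.85 to 1.46 on the log2 scale, which limits what can be called there.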
